A study of Rattus norvegicus with 12 samples.

Results

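Of the measured receptors that carry sympathetic, vagal and adenosine signals to heart cells, 9 with 1 probe set each are the subject here: the alpha1-adrenergic receptors Adra1a, Adra1b and Adra1d, the beta-adrenergic receptors Adrb1 and Adrb3, the muscarinic receptor Chrm2, and the adenosine receptors Adora1, Adora2a and Adora2b. They were picked by symbol, with earlier results of these data known, among 14324 genes that had at least 1 probe set with a single gene symbol in the platform annotation. The cultures were cardiomyocytes isolated by enzymatic digestion from hearts of Sprague-Dawley rat pups 2 days old, plated on coated coverslips and grown for 3 days. For the next 3 days the medium held the phthalate DEHP, di(2-ethylhexyl) phthalate, which softens polyvinyl chloride plastics, at 1, 10 or 50 µg/ml in 0.1% dimethyl sulphoxide (DMSO), while the vehicle group received 0.1% DMSO alone. All 4 groups therefore carried the solvent, and there was no culture without it. Each group had 3 arrays, 12 in all, and all cells came from 1 litter, so every p-value below measures the spread among cultures of that litter.

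These receptors are G protein-coupled. Alpha1 receptors act through Gq and phospholipase C and raise calcium and protein kinase C activity, and in neonatal heart muscle cells they are known for driving growth. Beta receptors act through Gs and adenylyl cyclase to raise cAMP, which quickens and strengthens the beat. The muscarinic M2 receptor and the adenosine A1 receptor act through Gi, lower cAMP and open potassium channels, whereas the adenosine A2a and A2b receptors act through Gs. A2a and A2b receptors are also present on vascular and immune cells, and A2b answers to higher adenosine concentrations than the other adenosine receptors.

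All values below are log2 ratios of a culture's array to that probe set's 12-array median, so 0 is that median and a difference of 1 is a doubling. The ratio keeps differences between arrays and loses the level of each gene. It could therefore not be read whether a receptor lay above background, which of the receptors was more abundant, or whether the labelled cell type expressed its defining markers. A larger value was read as more RNA, a direction that no source used here records; turned, each rise below would be a fall. In these bulk cultures, fewer cells of a type and less RNA per cell cannot be told apart. Differences are given with the standard error of limma's fit over all 12 arrays, and a gene was called where its adjusted p (Benjamini-Hochberg over 14324 genes) was under 0.05.

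At 50 µg/ml, Adora2b, Adora2a and Adra1b rose against vehicle, by 0.69 ± 0.09, 0.57 ± 0.12 and 0.52 ± 0.09 log2 units (± SE, n = 3 per group), which is 1.61-fold, 1.48-fold and 1.44-fold. No receptor fell. The other 6 receptors differed from vehicle by between -0.012 and 0.22 log2 units and were not called. The 3 receptors called of 9 stand beside 17.6% of all genes called in this comparison, 8.75% higher and 8.84% lower. The median difference was 0.02 log2 units over the 9 receptors and 0.02 over all genes.

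**Figure D1:**
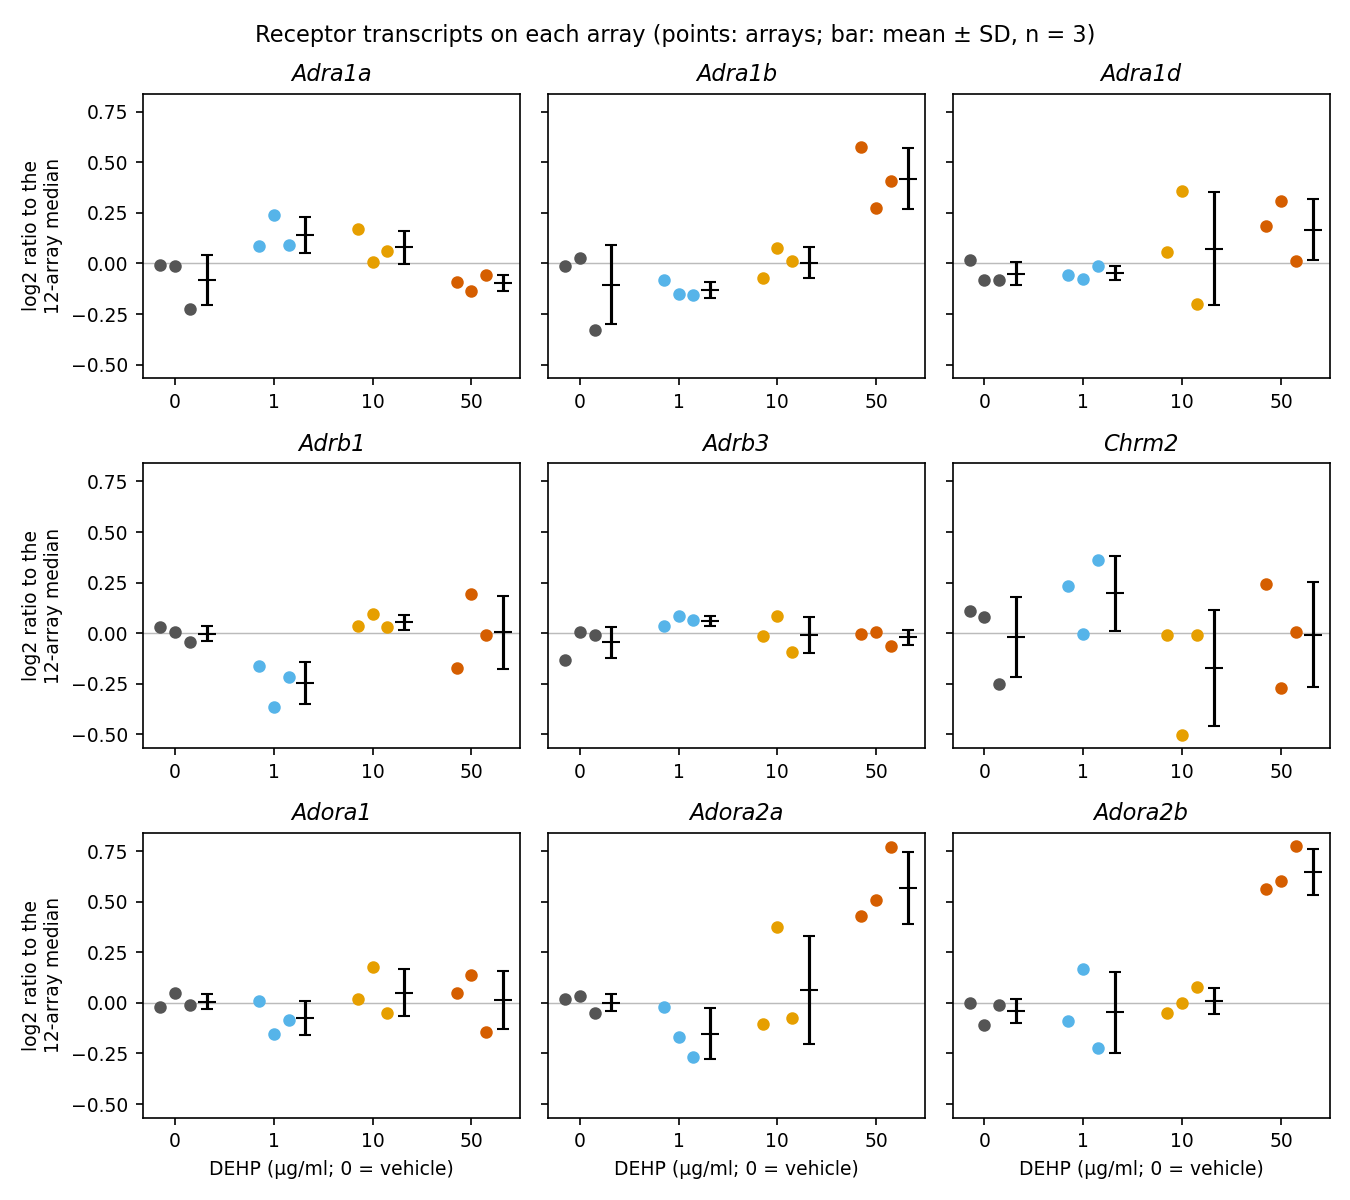
Log2 ratio of each of the 9 receptors to its median over the 12 arrays (vertical axis), by DEHP dose (horizontal axis); points are single arrays and bars give the mean ± SD of 3. For Adra1b, Adora2a and Adora2b all 3 arrays at 50 µg/ml lie above the 9 others, the nearest being an Adora2a value of 0.37 at 10 µg/ml, while the points of the other 6 receptors overlap between 50 µg/ml and vehicle.

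Of the alpha1 receptors, Adra1b changed most. This receptor (Entrez 24173, probe set 10742213) couples to Gq and its transcript is abundant in rat heart. Its log2 ratios were -0.011, 0.026 and -0.33 on the vehicle arrays, -0.084, -0.15 and -0.16 at 1 µg/ml, -0.074, 0.076 and 0.011 at 10 µg/ml, and 0.57, 0.27 and 0.41 at 50 µg/ml. The 3 arrays at 50 µg/ml were higher than all 9 others. The vehicle arrays overlapped those at 1 and at 10 µg/ml, while every array at 1 µg/ml lay below every array at 10 µg/ml. Against vehicle the rise at 50 µg/ml had a 95% confidence interval of 0.32 to 0.72 and an adjusted p of 0.0017 in limma's fit. Over the alternative fits this rise ran from 0.41 to 0.60, and it was smallest without vehicle replicate 3, the array at -0.33. Against 10 µg/ml the 50 µg/ml group was higher by 0.41 ± 0.09 (adjusted p = 0.00886), and against 1 µg/ml by 0.55 ± 0.09 (adjusted p = 0.00127). The difference from 10 µg/ml was 0.32, with adjusted p = 0.0861, when the arrays were quantile-normalised again. In order of group means, 50 µg/ml at 0.42 ± 0.15 (SD, n = 3) stood above the other groups, which lay between -0.13 and 0.0043, among which no pair was called.

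Adra1a (Entrez 29412, probe set 10781207), the alpha1A receptor, followed another pattern. Its values were -0.0066, -0.014 and -0.22 on the vehicle arrays, 0.085, 0.24 and 0.089 at 1 µg/ml, 0.17, 0.0066 and 0.061 at 10 µg/ml, and -0.092, -0.13 and -0.056 at 50 µg/ml. The arrays at 1 and 10 µg/ml were all above 0 and all those at 50 µg/ml below it, and the vehicle arrays overlapped those at 50 µg/ml. Adra1a was lower at 50 than at 1 µg/ml by 0.23 log2 units (difference -0.23 ± 0.07, 95% interval -0.38 to -0.08, adjusted p = 0.0268). This call was lost in 4 of 19 alternatives: without 1 µg/ml replicate 2, without 50 µg/ml replicate 1 or 2, and after a further quantile normalisation, where the adjusted p was highest at 0.111. Against vehicle, the difference was 0.22 ± 0.07 at 1 µg/ml (adjusted p = 0.0911) and 0.16 ± 0.07 at 10 µg/ml (adjusted p = 0.785), neither of them called, and -0.012 at 50 µg/ml, with an interval of -0.16 to 0.14. Adra1d (Entrez 29413, probe set 10850087), the alpha1D receptor, had vehicle values of 0.016, -0.082 and -0.083 and 50 µg/ml values of 0.19, 0.31 and 0.01. The groups overlapped, and the difference of 0.22 ± 0.11 was not called (interval -0.03 to 0.46, adjusted p = 0.225). Its widest spread was at 10 µg/ml, from -0.20 to 0.36 on 3 arrays.

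Neither beta receptor was called at 50 µg/ml against vehicle. Adrb1 (Entrez 24925, probe set 10716262), the main receptor for noradrenaline in heart muscle, had values of 0.028, 0.007 and -0.042 on the vehicle arrays, -0.16, -0.36 and -0.22 at 1 µg/ml, 0.034, 0.097 and 0.032 at 10 µg/ml, and -0.17, 0.19 and -0.007 at 50 µg/ml. All 3 arrays at 1 µg/ml lay below every vehicle and 10 µg/ml array and overlapped those at 50 µg/ml. The 10 µg/ml group was higher than the 1 µg/ml group by 0.30 ± 0.08 (adjusted p = 0.0275) and the 50 µg/ml group by 0.25 ± 0.08 (adjusted p = 0.0369). The difference between 1 µg/ml and vehicle was -0.24 ± 0.08 (interval -0.42 to -0.07, adjusted p = 0.105) and was not called. At 50 µg/ml the difference from vehicle was 0.0061, with an interval of -0.17 to 0.18. The difference between 50 and 1 µg/ml lost its call in 8 of 19 alternatives, with an adjusted p of up to 0.146. These were leaving out vehicle replicate 1 or 2, 1 µg/ml replicate 2 or 3 or 50 µg/ml replicate 2 or 3, testing probe sets singly, and fitting only the groups compared. Without 50 µg/ml replicate 2 it was 0.16, and the difference between 1 µg/ml and vehicle was then called (adjusted p = 0.045). Adrb3 (Entrez 25645, probe set 10788707), known mainly from fat cells, was the flattest of the receptors, with all 12 arrays between -0.13 and 0.084 and no comparison called. Its difference from vehicle at 50 µg/ml was 0.02, with an interval of -0.09 to 0.14.

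Chrm2 (Entrez 81645, probe set 10854544), the M2 receptor through which the vagus slows the heart, varied widely between cultures of the same dose, with SDs of 0.19 to 0.29. Its values were 0.11, 0.082 and -0.25 on the vehicle arrays, 0.23, -0.0035 and 0.36 at 1 µg/ml, -0.0096, -0.50 and -0.0065 at 10 µg/ml, and 0.25, -0.27 and 0.0035 at 50 µg/ml. The lowest values at 10 and at 50 µg/ml were both on replicate 2. Over all genes, the deviations of those arrays from their group means correlated with each other (r = 0.431). For Chrm2 the groups at 10 and 1 µg/ml narrowly did not overlap, and their difference of -0.37 ± 0.16 was not called (adjusted p = 0.141). Against vehicle at 50 µg/ml the difference was 0.01 ± 0.16, and the interval of -0.33 to 0.36 leaves room for a change of either sign. Adora1 (Entrez 29290, probe set 10767771), the adenosine A1 receptor, which couples to Gi as Chrm2 does, stayed between -0.15 and 0.18 on all 12 arrays and was called in no comparison. Its difference from vehicle at 50 µg/ml was 0.0083, with an interval of -0.16 to 0.17.

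Both adenosine receptors that couple to Gs rose at 50 µg/ml. Adora2b (Entrez 29316, probe set 10734291) had values of -0.0015, -0.11 and -0.011 on the vehicle arrays, -0.089, 0.17 and -0.22 at 1 µg/ml, -0.051, 0.0015 and 0.079 at 10 µg/ml, and 0.56, 0.60 and 0.78 at 50 µg/ml. The lowest array at 50 µg/ml stood well above the highest of the 9 others, 0.17. The rise of 0.69 ± 0.09 against vehicle had an interval of 0.50 to 0.88 and an adjusted p of 0.000154, and at 0.64 ± 0.09 against 10 µg/ml (adjusted p = 0.00034) and 0.69 ± 0.09 against 1 µg/ml (adjusted p = 0.000156) it was of like size. Group means were 0.65 ± 0.11 (SD, n = 3) at 50 µg/ml and between -0.05 and 0.01 in the others, among which no pair was called.

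Adora2a (Entrez 25369, probe set 10832577), the A2a receptor, had values of 0.019, 0.033 and -0.048 on the vehicle arrays, -0.019, -0.17 and -0.27 at 1 µg/ml, -0.10, 0.37 and -0.076 at 10 µg/ml, and 0.43, 0.51 and 0.77 at 50 µg/ml. All arrays at 50 µg/ml were again the highest, with 10 µg/ml replicate 2 next below them. Against vehicle the rise was 0.57 ± 0.12 (interval 0.31 to 0.83, adjusted p = 0.00538), and against 1 µg/ml 0.72 ± 0.12 (adjusted p = 0.00116). The difference from 10 µg/ml was 0.50 ± 0.12 (adjusted p = 0.0124), and 0.66 (adjusted p = 0.000466) without 10 µg/ml replicate 2. It was lost without 10 µg/ml replicate 1 (adjusted p = 0.0614), without 50 µg/ml replicate 3 (adjusted p = 0.0591) and where only those groups were fitted (adjusted p = 0.0677). The array of 10 µg/ml replicate 2 stood apart over all genes too: its deviations from the group mean had an SD of 0.119 log2 units, against 0.0591 to 0.0929 on the other 11 arrays.

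RefSeq promoter windows of assembly GRCr8 were at hand for 6 of the 9 receptors: Adra1b, Adra1d, Adrb1, Chrm2, Adora1 and Adora2b. The 250 bases upstream of the start are printed for the risers Adora2b and Adra1b and, to set beside them, for Adrb1 and Adora1, which were not called against vehicle at any dose. Each is given 5′ to 3′ in the sense of its gene, and capitals mark the GC box GGGCGG and the core TGACG of the cAMP response element, on either strand. Adora2b lies on chr10:47439462-47439711 (plus strand), Adra1b on chr10:28814348-28814597 (minus strand), Adrb1 on chr1:265776853-265777102 (plus strand) and Adora1 on chr13:48246832-48247081 (minus strand).
Adora2b: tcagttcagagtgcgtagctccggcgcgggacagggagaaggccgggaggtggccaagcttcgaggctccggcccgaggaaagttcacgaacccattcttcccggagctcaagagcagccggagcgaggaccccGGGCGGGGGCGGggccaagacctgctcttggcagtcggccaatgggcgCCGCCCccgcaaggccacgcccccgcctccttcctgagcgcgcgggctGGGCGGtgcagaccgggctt
Adra1b: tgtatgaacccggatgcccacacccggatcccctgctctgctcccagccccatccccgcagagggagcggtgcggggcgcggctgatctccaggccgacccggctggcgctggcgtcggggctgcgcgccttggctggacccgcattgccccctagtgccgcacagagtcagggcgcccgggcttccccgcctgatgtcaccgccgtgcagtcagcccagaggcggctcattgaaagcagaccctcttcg
Adrb1: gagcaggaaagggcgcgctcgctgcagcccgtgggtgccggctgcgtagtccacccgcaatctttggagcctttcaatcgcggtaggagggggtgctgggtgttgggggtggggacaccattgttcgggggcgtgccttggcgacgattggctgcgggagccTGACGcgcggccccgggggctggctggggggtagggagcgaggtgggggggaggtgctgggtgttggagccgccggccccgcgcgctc
Adora1: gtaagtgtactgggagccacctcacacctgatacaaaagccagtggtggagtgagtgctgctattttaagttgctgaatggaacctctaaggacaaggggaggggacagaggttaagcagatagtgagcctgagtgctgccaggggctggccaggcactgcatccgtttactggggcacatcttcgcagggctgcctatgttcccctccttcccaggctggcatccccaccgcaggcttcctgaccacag
Of these windows, Adora2b's held 4 GC boxes, beginning 116, 110, 68 and 20 bases upstream, the one at 68 on the opposite strand, and a CCAAT box at 78. A GC box is found in 30.5% of 33469 promoter windows of this length and CCAAT in 34%, both strands read. Of the receptor windows not printed, Chrm2's held 1 GC box, beginning 194 bases upstream on the opposite strand, and Adra1d's held none of the letters searched. Adra1b's window held none of the letters searched, and Adrb1's held 1 core, 88 bases upstream, and 1 CCAAT on the opposite strand at 104. Adora1's held none. That core is in 18.2% of windows, and the full site TGACGTCA, which contains it, in 1.59%; TATAAA, in 12.9%, was in none of the 6 receptor windows, nor was the full site. GC content was 71.2% for Adora2b, 70.8% for Adra1b and 72% for Adrb1, against 56.8% for Adora1. These are matches of letters. Of the receptors that rose, Adra1b's window held no searched motif, so within these 250 bases none of the searched motifs was shared by all of them. Adora2a had no window, so whether it shares a motif with Adora2b could not be read.

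**Figure D2:**
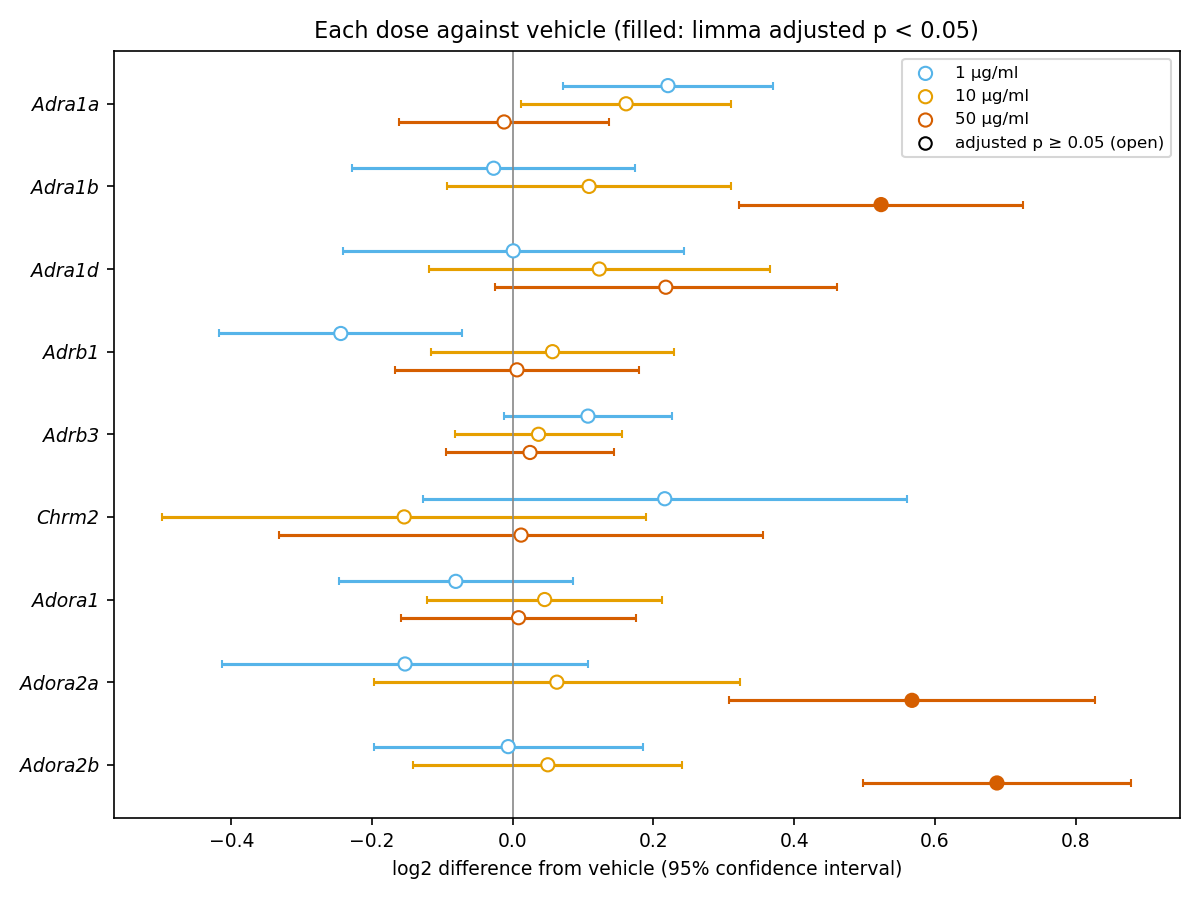
Difference of each dose from vehicle for each receptor, in log2 units with 95% confidence intervals from limma (horizontal axis); filled points have adjusted p under 0.05 over 14324 genes. The filled points are Adra1b, Adora2a and Adora2b at 50 µg/ml, while all points at 1 and 10 µg/ml are open.

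Against vehicle, receptors were called at 50 µg/ml and at neither lower dose. At 10 µg/ml against vehicle 0 of 9 receptors were called, as were 0% of all genes by limma's test; 899 genes and 1 receptor, Adra1a, had an unadjusted p under 0.05, and 90 genes were called when arrays were weighted by their quality. At 1 µg/ml 0 of 9 receptors were called beside 4.24% of all genes (2.51% higher and 1.74% lower), and Adra1a and Adrb1 were the 2 with an unadjusted p under 0.05. Both of these were called with array weights. Between doses, 3 of 9 were called at 50 against 10 µg/ml (14.6% of all genes), all higher. At 50 against 1 µg/ml 5 of 9 were called (24.9% of all genes), of which Adra1b, Adrb1, Adora2a and Adora2b were higher and Adra1a lower; 3 were called without 1 µg/ml replicate 2 or without 50 µg/ml replicate 2. At 10 against 1 µg/ml Adrb1 alone was called (14% of all genes), and it was lost without 1 µg/ml replicate 2 or 3 or without 10 µg/ml replicate 1 or 2. These comparisons share groups and are not independent of one another.

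A test for any difference among the 4 groups called 5 of 9 receptors, beside 27.2% of all genes. These were Adora2b (adjusted p = 0.000231), Adra1b (adjusted p = 0.00267), Adora2a (adjusted p = 0.00371), Adrb1 (adjusted p = 0.0419) and Adra1a (adjusted p = 0.0423). Adra1d, Adrb3, Chrm2 and Adora1 were not called, with adjusted p from 0.33 to 0.589. Without vehicle replicate 2, 1 µg/ml replicate 1, 2 or 3, 10 µg/ml replicate 1 or 50 µg/ml replicate 3, the count fell to 3, and Adrb1 and Adra1a were the calls lost. With any single array left out the count was 3 to 4, so none of those fits kept all 5 calls. It was also 3 with probe sets tested singly and with replicate number as a block.

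Over the 12 arrays, the receptors that rose varied together: Pearson's r was 0.855 between Adora2a and Adora2b, 0.838 between Adra1b and Adora2a, and 0.823 between Adra1b and Adora2b. The next closest pair was Adra1d and Adora1, at 0.725, and the pair furthest below 0 was Adrb1 and Chrm2, at -0.595. Such values describe arrays that share the same 4 groups, so genes that differ at the same dose correlate. That does not cover Adra1d and Adora1, neither of which was called in any comparison. Within the 10 µg/ml group and within the 50 µg/ml group, both were highest on replicate 2 and lowest on replicate 3. On the same replicate 2 arrays Adrb1 was the highest of its group and Chrm2 the lowest. Among all 14324 genes, the closest to Adora2b over the 12 arrays were Cntn2 (r = 0.966), Pappa (0.966) and Smoc2 (0.963). Those closest to Adora2a were Atf6b (0.973), Fgfr4 (0.971) and Ifi27l2b (0.963), and those closest to Adra1b were Cdc42ep4 (0.965), Slc12a7 (0.961) and Lamb3 (0.955). Adrb1 lay closest to Chrnb4 (0.94), Hic2 (0.932) and Arrdc2 (0.931), and Adra1a to Itga6 (0.853), Mon1a (0.852) and Xirp2 (0.836).

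Markers of other cell types were called at the same dose, and their counts stand beside 8.75% of all genes higher and 8.84% lower. All 18 macrophage and leukocyte markers measured fell at 50 µg/ml against vehicle, with a median difference of -1.19 log2 units. Their median per array was 0.16 to 0.23 in the vehicle group, -0.25 to 0.11 at 1 µg/ml, -0.07 to 0.12 at 10 µg/ml and -1.11 to -0.96 at 50 µg/ml. Of 9 endothelial markers, 4 rose and 1 fell at 50 µg/ml, with per-array medians of -0.025 to 0.031 in the vehicle group, -0.50 to -0.12 at 1 µg/ml, -0.19 to 0.18 at 10 µg/ml and 0.15 to 0.26 at 50 µg/ml. At 10 µg/ml the endothelial (0.18), macrophage and leukocyte (0.12) and neuron and glia (0.07) medians were all highest on replicate 2, where Adora2a was 0.37. Adra1b, Adra1d, Adrb1, Adrb3 and Adora1 were also highest of that group on this array, and Adra1a and Chrm2 were lowest. The other marker lists had their highest median of that group on replicate 3, and replicate 2 was also the array that deviated most over all genes. Of 16 cardiomyocyte markers 9 rose and 1 fell (median 0.21), of 6 epicardial and mesothelial markers 3 rose and 0 fell (median 0.32), of 12 fibroblast markers 1 rose and 2 fell (median -0.01), of 10 smooth muscle and pericyte markers 4 rose and 4 fell (median 0.01), and of 9 neuron and glia markers 1 rose and 0 fell (median 0.09). Per-array cardiomyocyte medians were -0.22 to -0.01 in the vehicle group, lowest on replicate 3. They were -0.10 to -0.01 at 1 µg/ml, 0.03 to 0.09 at 10 µg/ml and 0.03 to 0.11 at 50 µg/ml. Leaving out single arrays of the vehicle or 50 µg/ml group (any of them but 50 µg/ml replicate 1) lowered the endothelial count from 5 to between 1 and 3, and leaving out vehicle replicate 3 or 50 µg/ml replicate 1 or 3 lowered the cardiomyocyte count from 10 to 5 or 6. Without 50 µg/ml replicate 1 the fibroblast count was 5, and without vehicle replicate 1 the neuron and glia count was 0. The macrophage and leukocyte count was 18 with each array left out. The part of these cells in the receptors' differences was not tested.

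**Figure D3:**
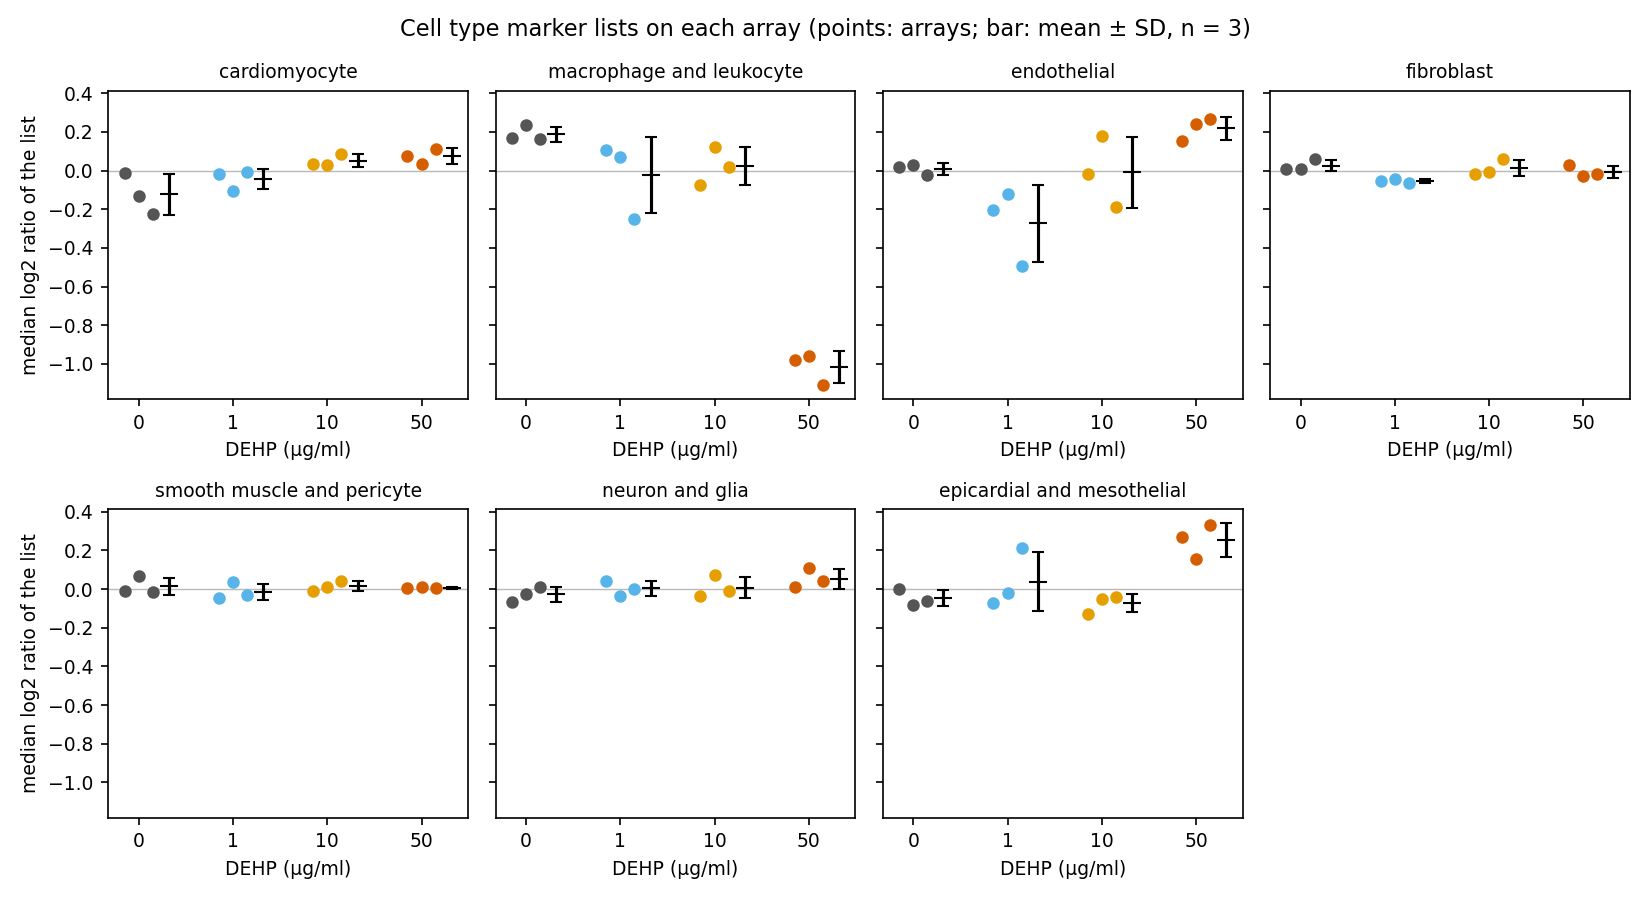
Median log2 ratio of each cell type marker list on each of the 12 arrays (vertical axis), by DEHP dose (horizontal axis); points are single arrays and bars give the mean ± SD of 3. The macrophage and leukocyte list is at -1.11 to -0.96 on the 50 µg/ml arrays and between -0.25 and 0.23 on all others, and the endothelial list has its lowest group mean at 1 µg/ml.

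Among 6 other adrenergic and muscarinic receptors measured (Adra2b, Adra2c, Chrm1, Chrm3, Chrm4 and Chrm5), Adra2b, a Gi-coupled alpha2 receptor, was the 1 called at 50 µg/ml against vehicle, a share near the 17.6% of all genes. Its values were 0.039, -0.066 and -0.0090 on the vehicle arrays and 0.30, 0.37 and 0.14 at 50 µg/ml, which did not overlap. The rise of 0.28 ± 0.09 had an adjusted p of 0.0412 and was lost without any single vehicle array, 1 µg/ml replicate 1, 10 µg/ml replicate 1 or 50 µg/ml replicate 1 or 2, with the replicate block and after a further quantile normalisation, with an adjusted p of up to 0.145. The other 5 differed from vehicle by between -0.03 and 0.09 log2 units.

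Downstream of the receptors, the counts at 50 µg/ml against vehicle stand beside 8.75% of all genes higher and 8.84% lower, 17.6% in all, and no list was tested against that share. In the cAMP branch, called genes were of both signs and most members were not called. Of 12 G protein alpha subunits 3 rose and 1 fell: Gnas, the Gs subunit used by beta, A2a and A2b receptors, by 0.32 ± 0.09, Gnai1 by 0.45 ± 0.11 and Gnao1, both of the Gi class, by 0.37, against Gna15, a Gq class subunit of blood cells, at -0.85 ± 0.14. Gnai1 had an adjusted p of 0.0502 without vehicle replicate 3. Of 8 adenylyl cyclases 3 rose and 0 fell, led by Adcy2 at 0.92 ± 0.10 (adjusted p = 4.35e-05) and followed by Adcy5, a main cyclase of heart muscle, at 0.47 ± 0.06 and Adcy4 at 0.23. Adcy2 was 0.83 to 1.05 on the 50 µg/ml arrays and at most 0.20 on the others. Of 17 phosphodiesterases, which break down cyclic nucleotides, 3 rose and 1 fell, with Pde7b at 0.44 ± 0.08 and Pde7a at -0.91 ± 0.08 (adjusted p = 1.29e-05), both cAMP-specific. Of 20 genes of protein kinase A, its anchors and inhibitors and the Epac exchange factors, 2 rose and 6 fell, among them the anchors Akap12 at 0.29 ± 0.06 and Akap5 at -0.48 ± 0.08 and the kinase inhibitor Pkig at -0.40. Of 14 genes of the CREB family or responsive to cAMP, 4 rose and 1 fell. Nr4a3, Per1, Sik1 and Nr4a2 rose by 1.21 ± 0.08, 0.64, 0.55 and 0.26, against Creb1, the factor itself, at -0.36 ± 0.06. The other 9 were not called, among them Crem, Ppargc1a, Pde4b and Pde4d.

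Of 12 G protein beta and gamma subunits 0 rose and 2 fell (Gng3 at -0.47 ± 0.07 and Gnb4 at -0.27), a share near the 17.6% of all genes. Of 7 receptor kinases and arrestins, likewise near that share, 1 fell, Grk2, which phosphorylates active beta receptors, at -0.37 ± 0.06 (adjusted p = 0.000678). It was -0.39 to -0.21 on the 50 µg/ml arrays and -0.08 to 0.13 on the others. Of 20 phospholipase C, protein kinase C and inositol trisphosphate receptor genes, the route of the alpha1 receptors, 3 rose and 4 fell, with Prkce at 0.30 ± 0.08 and Plcb2, a blood cell isoform, at -0.52 ± 0.09. Leaving out any vehicle array, or 50 µg/ml replicate 1 or 3, lowered the 7 calls of this list to 4, and Prkce lost its call without vehicle replicate 1 or 3 or 50 µg/ml replicate 2 or 3 (adjusted p of up to 0.0706). Of the beta and gamma subunits, there was 1 call without any single vehicle or 1 µg/ml array or 50 µg/ml replicate 2 or 3, and of the receptor kinases and arrestins 3 were called without 10 µg/ml replicate 2 and 2 without 50 µg/ml replicate 3. The potassium channel opened by Chrm2 and Adora1 is built from Kcnj3 and Kcnj5. These moved apart: of 4 channel genes Kcnj3 rose by 0.53 ± 0.07 (adjusted p = 0.000272) and Kcnj5 fell, at -0.34 ± 0.08 (adjusted p = 0.00696; 0.0774 after a further quantile normalisation).

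Among genes that set the supply of the ligands, 3 of 16 adenosine metabolism genes rose, 4 fell and 9 were not called, beside 17.6% of all genes called. Entpd1, which degrades extracellular ATP and ADP to AMP and is abundant on leukocytes and endothelium, stood furthest from 0 among them, at -1.52 ± 0.08 (adjusted p = 9.79e-08), with values of 0.12 to 0.30 in the vehicle group and -1.36 to -1.17 at 50 µg/ml. Nt5e, which turns AMP into adenosine, stood at -0.37, and the adenosine transporters Slc28a2 and Slc29a1 at -0.61 and -0.39, whereas Entpd2, which degrades ATP, rose by 0.48 ± 0.07, Ampd3 by 0.37 and Dpp4 by 0.31. Of 11 genes of catecholamine and acetylcholine handling 2 rose and 0 fell, near the share of all genes: Bche, which splits choline esters, by 0.40 ± 0.10, and the choline transporter Slc5a7 by 0.37. Bche was not called without vehicle replicate 3 (adjusted p = 0.0666) or without 50 µg/ml replicate 1 (adjusted p = 0.0567). The median differences of these lists lay between -0.11 and 0.11, beside 0.02 over all genes, and the fall of the 18 leukocyte markers stood beside all of them. Their part in these lists was not tested. At 1 µg/ml against vehicle, where 4.24% of all genes were called, the called genes of these lists were the following: Gnb5, Akap12 and Prkca were higher, and Gnb2, Adcy6 and Rapgef3 lower.

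**Figure D4:**
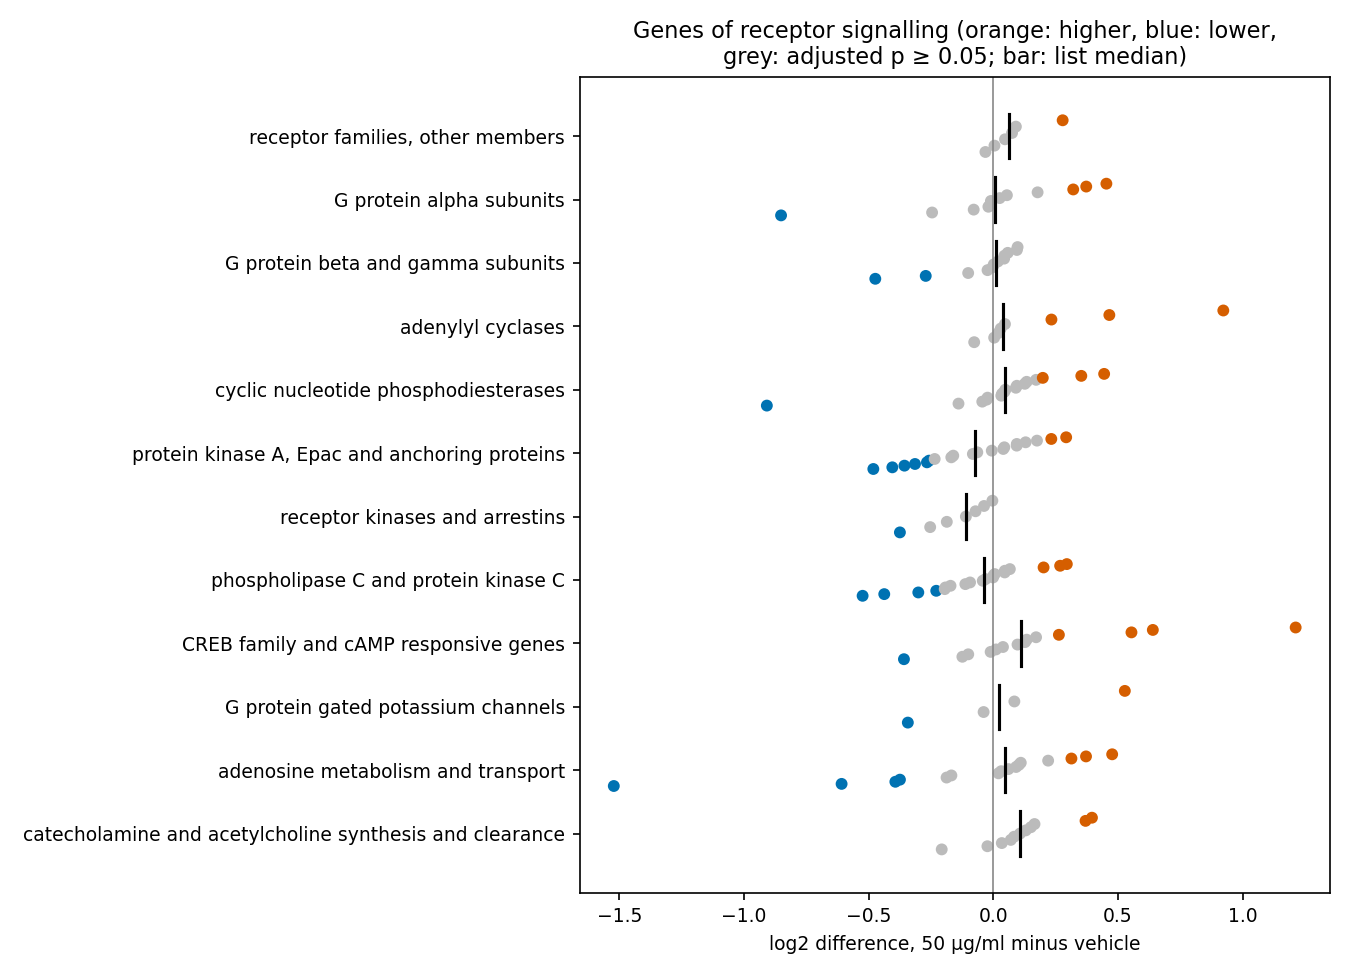
Difference between 50 µg/ml DEHP and vehicle for every measured gene of the receptors' signalling and ligand lists, in log2 units (horizontal axis); each point is a gene, orange where it rose, blue where it fell and grey where adjusted p was 0.05 or more, and bars are list medians. Nr4a3 and Adcy2 lie furthest to the right, at 1.21 and 0.92, and Entpd1 furthest to the left, at -1.52.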

How the data were processed

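RNA of 12 cultures was hybridised to Affymetrix arrays and, per the submitters' processing notes, processed with RMA (background correction, quantile normalization, probe set summary), in a version not given in the sources used here. What the authors deposited are ratios of each array to the probe set's median over the 12 arrays, as read from the values: in every probe set the mean log of sorted values 6 and 7 was 0 within 1e-06. Ratios ran from 0.165 to 12.2, and array medians from 0.994 to 1.01.

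The deposited ratios were converted to log2 and averaged over a gene's probe sets. Of 27342 probe sets, 15097 had 1 symbol, 323 several and 11922 none; those with 1 gave 14324 genes. A linear model of the 4 groups (limma 3.58.1, R 4.3.3; 12 arrays, 8 residual degrees of freedom) was followed by empirical Bayes moderation, Benjamini-Hochberg adjustment over all genes and a threshold of 0.05. Intervals are 95%. Because levels are lost, genes were represented by the mean of their probe sets, and dim probe sets could not be filtered. No depth exists for arrays: their number limits the precision. The fit was tested on simulated data.

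The receptors and gene lists were chosen with earlier results of these data known. Named were the receptors, other members of their families, the called gene with the largest rise and the largest fall at 50 µg/ml in each pathway list, and the 3 genes most correlated with each receptor that differed among groups; further called genes of a list were named after their values were seen. Alternatives were array weights, further normalisation, other moderation, a replicate block, single probe sets, fewer groups and leaving out each array.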

Additional observations from a re-analysis of the deposited data

How the results depend on the processing

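At 50 µg/ml against vehicle the same 3 receptors, Adra1b, Adora2a and Adora2b, were called in all 19 alternatives, with adjusted p of at most 0.011, 0.0281 and 0.00126. Of 1026 receptor values recomputed under alternatives, 1001 kept their side of the threshold, 20 lost a call, 5 gained one and 0 called values reversed. At 1 µg/ml against vehicle, 2 receptors were called with array weights, 1 with only the groups compared, and 0 to 1 when each array was left out. Leaving out arrays gave 3 to 5 calls at 50 against 1 µg/ml, 0 to 1 at 10 against 1 µg/ml and 3 to 4 for any difference. With probe sets tested singly the any-difference count was 3, and it was 3 with replicate number as a block. Whether replicate numbers pair the cultures could not be decided with 3 arrays per group. Of 18 same-number pairs 6 correlated over 0.1 (range -0.233 to 0.431), and of 36 others 10 did (-0.481 to 0.494). The cause of these correlations was not tested.

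Over all genes, calls ranged from 1731 to 3181 at 50 µg/ml against vehicle (2520 in the fit reported), 0 to 90 at 10 µg/ml (0) and 176 to 1772 at 1 µg/ml (608). Between doses they ranged from 1401 to 3457 at 50 against 10 µg/ml (2091), 2321 to 4370 at 50 against 1 µg/ml (3562) and 820 to 3155 at 10 against 1 µg/ml (2001), and from 2802 to 5516 for any difference (3901). The number of arrays limits precision: the 95% interval at 50 µg/ml against vehicle was widest for Chrm2, -0.33 to 0.36, and narrowest for Adrb3, -0.09 to 0.14. After a further quantile normalisation, 1 of the 9 endothelial markers, 1 potassium channel gene and 4 phospholipase C and protein kinase C genes were called. The planned filter on low values was not run, since ratios keep no level.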
